A study of Mus musculus with 6 samples.

Results

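Nnt and 5 other genes of distal mouse chromosome 13 (Tmem267, Paip1, Zfp131, Ddx4 and Rnf180) were followed in macrophages lacking the fatty-acid-binding protein E-FABP. They were chosen by name, as all probe sets annotated to these 6 genes, to look for differences that come with a mouse substrain or with chromosome segments carried along in a knockout line. The rule gave 12 probe sets of the 45037 tested, for 6 genes of the 18193 that had a probe set of their own: 4 for Paip1, 3 for Nnt, 2 for Rnf180 and 1 each for Tmem267, Ddx4 and Zfp131. The genes were picked with the contrast of knockout against wild type on these same arrays already known, so their values in that contrast are a description and carry no test.

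The samples were 3 cultures from E-FABP knockout mice and 3 from wild-type mice, which the labels number as biological replicates 1 to 3 of each genotype. Marrow came from mice 6 to 8 weeks old and was grown for 7 days with the growth factor GM-CSF at 20 ng/ml, which gives macrophages mixed with cells that have dendritic cell features. All 6 cultures then spent 18 h beside E0771 cells, a mouse mammary tumour line, held in an insert, and no culture without tumour cells was analysed here. Whole-culture RNA was read on Affymetrix 3' expression arrays. The labels give the strain of both genotypes as C57BL/6. Which C57BL/6 substrain was used for either genotype, how the knockout allele was made and how far it was backcrossed are not given in the sources used here. In addition, the labels do not say whether each culture came from its own animal. All values below are log2 intensities, on which a difference of 1 is a doubling, and a p-value speaks of the spread between these samples.

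Nnt encodes nicotinamide nucleotide transhydrogenase, an enzyme of the inner mitochondrial membrane that uses the proton gradient to turn NADH into NADPH. Mitochondria spend NADPH on glutathione and thioredoxin, which remove hydrogen peroxide. Nnt is also the best-known difference among C57BL/6 mice: C57BL/6J mice carry a deletion within the gene and make no working protein, whereas other C57BL/6 substrains carry the intact gene. No source used here gives the part of Nnt that its probe sets read, so they do not show whether that deletion was present in either genotype.

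The arrays were alike in overall signal, with medians between 5.6 and 5.64; across probe sets, arrays of one genotype correlated at 0.9965 to 0.9977 (Pearson's r) and arrays of different genotypes at 0.9914 to 0.9961. Fabp5, the gene of E-FABP, read 8.13, 8.31 and 8.39 on the knockout arrays and 14.47, 14.41 and 14.45 on the wild-type arrays, so each array carried its stated genotype. All 10 macrophage markers listed (among them Adgre1, Csf1r and Cd68) had means above 5.63, the median of all values. Of these 10, 2 fell: Fcgr1 fell by 1.13 (SE 0.19, limma adjusted p = 0.0227) and Mertk fell by 0.46 (SE 0.08, limma adjusted p = 0.0234). The macrophage list averages ran from 12.06 to 12.22 on knockout arrays and from 12.30 to 12.35 on wild-type arrays. Averaged over its 10 measured markers, the neutrophil list ran from 8.51 to 9.09 on knockout arrays and from 9.17 to 9.48 on wild-type arrays. The dendritic cell list, with 11 measured markers, ran from 8.39 to 8.81 and from 8.08 to 8.30. Of the 10 neutrophil markers 0 passed limma's adjusted threshold of 0.05 (at an unadjusted p under 0.05, 7 were lower and 1 was higher), and 3 of the 11 dendritic cell markers rose. The 9 fibroblast markers ran from 4.91 to 5.03 on knockout arrays and from 5.43 to 5.48 on wild-type arrays, and 3 of them fell. In RNA from a whole culture, fewer cells of a type and less RNA per cell cannot be told apart, and the part of these markers in the results below was not tested.

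Promoters are shown for Ddx4, Tmem267 and Rnf180, the members other than Nnt whose genotype means differed most. The 250 bases before an annotated start are given 5′ to 3′ on the gene's strand, from RefSeq on build GRCm38.p6, a C57BL/6J genome; the DNA of these mice was not read. Capitals mark a CCAAT box (CCAAT), a GC box (GGGCGG) or an E-box (CACGTG) on either strand; no marked motif overlaps another in these windows.
Ddx4, chr13:112652311-112652560, minus strand: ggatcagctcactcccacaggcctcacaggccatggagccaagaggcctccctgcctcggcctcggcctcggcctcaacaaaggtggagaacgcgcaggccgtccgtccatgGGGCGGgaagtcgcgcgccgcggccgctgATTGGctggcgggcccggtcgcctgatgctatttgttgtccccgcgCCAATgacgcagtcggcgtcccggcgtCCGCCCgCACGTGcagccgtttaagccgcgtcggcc
Tmem267, chr13:119487836-119488085, plus strand: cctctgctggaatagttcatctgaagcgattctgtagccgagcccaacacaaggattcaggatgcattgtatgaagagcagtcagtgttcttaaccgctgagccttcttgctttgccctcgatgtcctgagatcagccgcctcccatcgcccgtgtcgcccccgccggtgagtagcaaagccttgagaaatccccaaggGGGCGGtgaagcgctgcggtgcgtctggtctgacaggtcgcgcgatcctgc
Rnf180, chr13:105294486-105294735, minus strand: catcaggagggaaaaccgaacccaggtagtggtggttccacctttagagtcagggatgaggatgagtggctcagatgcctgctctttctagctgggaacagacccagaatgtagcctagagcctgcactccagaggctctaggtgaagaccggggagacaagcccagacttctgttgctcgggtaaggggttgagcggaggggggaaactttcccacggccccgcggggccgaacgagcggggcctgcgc
Ddx4 holds 2 CCAAT boxes, 2 GC boxes and 1 E-box in this window, the Tmem267 window holds 1 GC box, and the Rnf180 window holds 0 of these motifs. Tmem267 and Rnf180 each have a second annotated start, not printed, whose window holds 3 GC boxes and 2 CCAAT boxes, respectively. RefSeq gave 9 such windows for 5 of the 6 genes, since some have several starts. The interferon-stimulated response element (searched on both strands as 2 copies of GAAA with any 2 bases between them) occurred in 0 of these 9 windows and in 2.98% of all 32851 windows of the same length. A GC box occurred in 7 of the 9 and in 32.7% of all windows, a CCAAT box in 3 and in 33.8%, and an E-box in 1 and in 6.02%. These are matches of letters only.

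Nnt read higher on the knockout arrays in 2 of its 3 probe sets. Its brightest probe set read 9.85, 9.29 and 9.88 on knockout arrays 1 to 3 and 8.37, 8.82 and 9.07 on wild-type arrays 1 to 3. The lowest knockout value, on array 2, lay 0.22 above the highest wild-type value, on array 3. The means were 9.67 ± 0.33 and 8.76 ± 0.35 (SD, n = 3 each), which differ by 0.92 (SE 0.20), or 1.89-fold. The next brightest read 9.0, 8.68 and 9.14 in knockout and 7.73, 8.36 and 8.39 in wild type. The order of the arrays was the same in both probe sets within each genotype, with knockout 2 lowest among knockouts and wild type 1 lowest of all 6. Its difference was 0.78 (SE 0.18), or 1.72-fold. The brightest probe set is of a type (suffix x_at) whose probes can match transcripts of other genes, so its values are less certain than those of this one. The dimmest probe set, by contrast, read 5.39, 5.23 and 5.45 in knockout and 5.42, 5.32 and 5.27 in wild type, a difference of 0.02 (SE 0.08), and the genotypes overlapped. That probe set lay below the median of all values on every array. Nnt signal was thus present in both genotypes on the 2 brighter probe sets, with both genotype means above the median of all values.

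Tmem267 encodes a predicted transmembrane protein and lies 4 measured genes distal to Nnt. Its single probe set read 8.72, 8.47 and 7.92 on knockout arrays 1 to 3 and 7.57, 6.73 and 6.98 on wild-type arrays 1 to 3. The genotypes did not overlap, but knockout 3 lay only 0.35 above wild type 1. The means were 8.37 ± 0.41 and 7.09 ± 0.43 (SD, n = 3 each), a difference of 1.28 (SE 0.24), or 2.42-fold. This was the 2nd largest rise in mean among all 18193 genes, and 8 genes (0.044%) differed by at least 1 in that direction. Within a genotype Tmem267 and Nnt did not rank the arrays alike: wild type 1 was the lowest wild-type array for Nnt and the highest for Tmem267.

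Paip1 lies between Nnt and Tmem267, and Zfp131 lies distal to both; neither differed by more than 0.12 in any probe set. Paip1 encodes a partner of the poly(A)-binding protein that promotes translation initiation. Its brightest probe set read 8.91, 8.94 and 9.04 in knockout and 8.84, 8.82 and 8.88 in wild type, a difference of 0.12 (SE 0.07). The genotypes stood apart by 0.04 on that probe set. The other 3 Paip1 probe sets differed by 0.02 to 0.11, and 1 of them also had no overlap, by 0.01. Zfp131, a zinc finger transcription factor of the BTB domain family 8 measured genes distal to Nnt, read 9.918, 9.802 and 10.018 in knockout and 10.003, 9.998 and 9.967 in wild type. Its values overlapped, with a difference of -0.08 (SE 0.07).

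Ddx4 went the other way. It encodes the DEAD-box RNA helicase known as Vasa, a marker of germ cells that is not known for a role in macrophages, and lies 29 measured genes proximal to Nnt. Its probe set read 4.18, 4.18 and 4.57 on the knockout arrays and 5.82, 5.90 and 5.55 on the wild-type arrays. All 3 knockout values lay below all wild-type values, with 0.99 between the nearest arrays, the widest gap of the 12 probe sets. The means were 4.31 ± 0.23 and 5.76 ± 0.18 (SD, n = 3 each), a difference of -1.45 (SE 0.13), or 2.73-fold lower. The wild-type mean lay near the median of all values (5.63) and the knockout mean near their 20th percentile (4.07), so this is a difference between dim signals, and a background level was not available to set a bound. It was the 40th largest fall among all genes, of which 95 (0.522%) were lower by at least 1.

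Rnf180, which encodes a membrane-anchored E3 ubiquitin ligase, is the most proximal of the genes, 50 measured genes from Nnt. The brighter of its probe sets read 7.13, 7.55 and 7.35 in knockout and 6.51, 6.11 and 6.55 in wild type. Every knockout array was above every wild-type array, by at least 0.58. The means were 7.34 ± 0.21 and 6.39 ± 0.24 (SD, n = 3 each), a difference of 0.95 (SE 0.14), or 1.94-fold. The dimmer one read 4.52, 4.79 and 4.59 against 4.37, 4.75 and 4.68 and overlapped, with a difference of 0.04 (SE 0.11).

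Counted over the 12 probe sets, the genotypes did not overlap in 7, with 6 higher and 1 lower in knockout. Over all 45037 probe sets, 26.9% did not overlap (15.8% higher and 11.1% lower); nothing is read from the members' count, since they were chosen on this contrast. By limma's adjusted p of 0.05, 3.75% of all probe sets passed, 2.06% higher and 1.7% lower. Leaving out 1 array at a time kept the direction of the 5 probe sets named with differences above 0.7 in size. The Nnt difference (brightest probe set) then ranged from 0.73 to 1.11, that of Tmem267 from 1.10 to 1.51, that of Rnf180 (brighter probe set) from 0.81 to 1.06 and that of Ddx4 from -1.58 to -1.38.

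**Figure D1:**
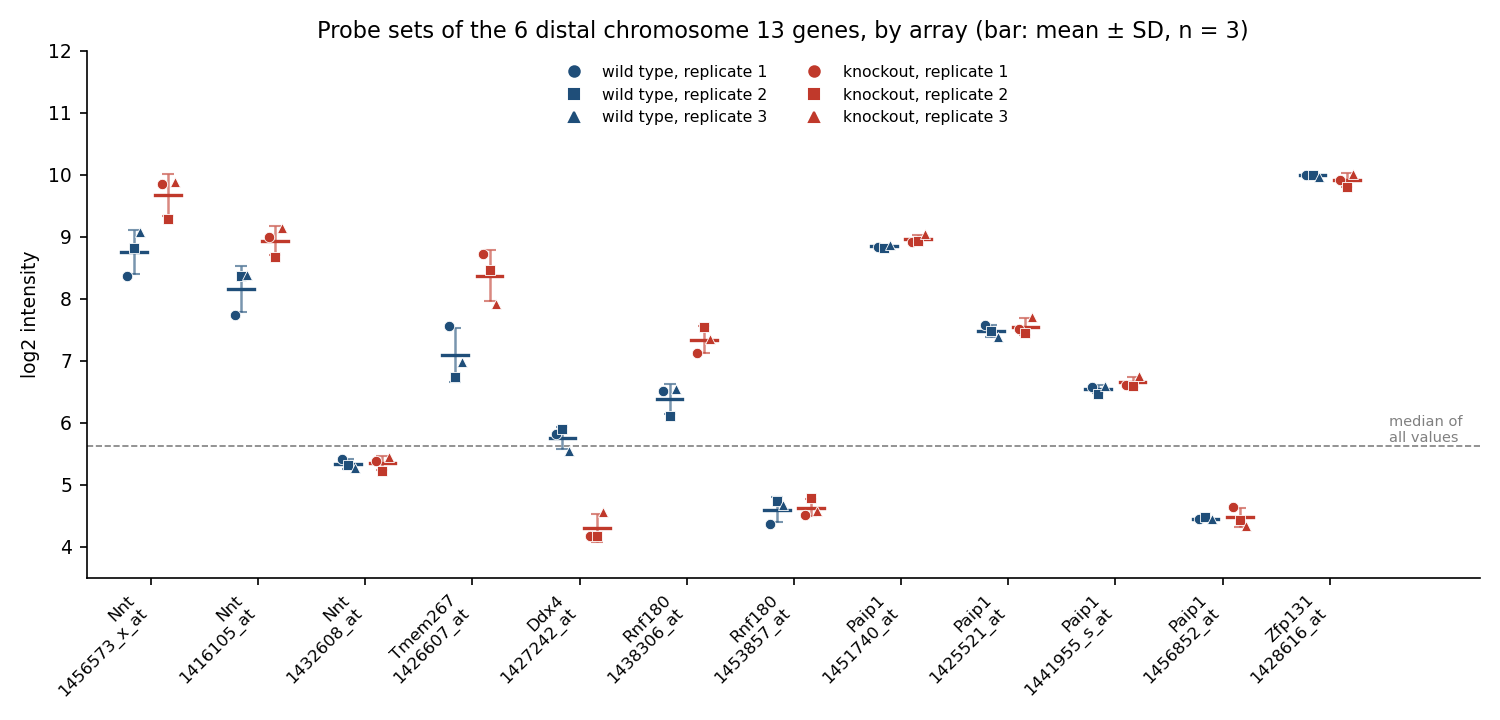
Log2 intensity (vertical axis) of the 12 probe sets of Nnt, Tmem267, Ddx4, Rnf180, Paip1 and Zfp131 (horizontal axis) on 3 wild-type arrays (blue) and 3 knockout arrays (red); marker shapes are replicates 1 to 3, horizontal bars are means, error bars are SDs, and the dashed line is the median of all values, 5.63. The genotypes stand apart for the 2 brighter Nnt probe sets, Tmem267, Ddx4 and the brighter Rnf180 probe set, and lie close together or overlap for the other 7.

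The brightest probe sets of the members were compared over the 6 arrays, which share the genotype step and are no independent points, so the correlations describe only these arrays. Pearson's r was 0.86 between Tmem267 and Rnf180, -0.94 between Ddx4 and Rnf180 and -0.91 between Ddx4 and Tmem267. Nnt followed these genes less closely, at 0.62 with Tmem267, 0.72 with Rnf180 and -0.83 with Ddx4. With the remaining members, Nnt stood at 0.80 for Paip1 and -0.22 for Zfp131. Among the 101 other genes that differed by at least 1 between genotypes, those most like Nnt over the 6 arrays were Lrmda (r = 0.76), Galnt12 (0.75), Hells (0.72), Rrm2 (0.70) and Nrep (0.69), which lie on other chromosomes. Of the 101, which leave out the members, 3 lie on chromosome 13. That chromosome holds 702 of the 18029 genes placed on a chromosome. The most opposite were Chrna5 (-0.90), Fabp5 itself (-0.86), the heat-shock genes Hspa1b (-0.85) and Hspa1a (-0.83), and Rilpl1 (-0.80).

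The other genes of the region show whether the differences ran along the chromosome. From Rnf180 to the distal end, 61 further genes were measured. Of these, 3 rose, 3 fell and 55 did not pass limma's adjusted p of 0.05, that is 9.84%, where 4.9% of all 18193 genes passed (2.85% higher and 2.05% lower). The members were picked out of this region on the same contrast, so the 61 are what that choice left. Their median difference was -0.02, against 0.01 for all genes, and the genotypes did not overlap in 34.4% of them, against 31.9% of all genes (20.7% higher and 11.2% lower). At limma's unadjusted p under 0.05 stood 20 of the 61 (32.8%), against 23.4% of all genes. Among the 33 region genes above the median level it was 48.5%, against 31.7% of all genes above that level. On the rest of chromosome 13, 28 of 635 genes (4.41%) passed. Chromosome 13 as a whole, with the 6 members counted, stood 7th of 20 chromosomes, with 5.41% of its genes past the threshold. Chromosome 19 stood highest with 7.06%. The members were chosen on this contrast, so nothing is read from the rank of chromosome 13.

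The 6 genes past the threshold lay in a few stretches of the region and did not share a direction. Pde4d, a cyclic AMP phosphodiesterase, rose by 0.48 (SE 0.10, limma adjusted p = 0.0348), but its other, dim probe set differed by -0.25 (SE 0.09, limma adjusted p = 0.184) without overlap, and Pde4d did not pass when its probe sets were averaged. Plk2, a polo-like kinase induced by stress, fell by 0.37 (SE 0.06, limma adjusted p = 0.0223). In its other, dim probe set the genotypes overlapped, with a difference of -0.29 (SE 0.11, limma adjusted p = 0.203). Mier3, a transcriptional regulator, fell by 0.66 (SE 0.09, limma adjusted p = 0.0174). These 3 genes lie between Rnf180 and Ddx4, where 20 genes other than the members were measured. Of the 20, 9 (45%) stood at limma's unadjusted p under 0.05. That compares with 23.4% of all genes and 31.7% of genes above the median level, where 15 of the 20 lie. Between Ddx4 and Nnt, 0 of 28 genes passed limma's threshold, with 6 (21.4%) at an unadjusted p under 0.05, against 23.4% of all genes. Between Nnt and Zfp131, 2 of 5 rose, with 3 (60%, against 23.4% of all genes) at limma's unadjusted p under 0.05. Hmgcs1, which encodes the synthase that makes HMG-CoA for cholesterol, read 10.78, 10.73 and 10.76 in knockout and 10.50, 10.26 and 10.42 in wild type, a rise of 0.36 (SE 0.08, limma adjusted p = 0.0391). Further Hmgcs1 probe sets rose by 0.40, 0.32 and 0.31 (limma adjusted p = 0.0234, 0.0358 and 0.0356). A dim one differed by 0.05 (SE 0.08) with overlap. Nim1k, a protein kinase of the AMPK-related family, rose by 0.44 (SE 0.07, limma adjusted p = 0.0207) from a dim 3.90 to 4.34. Beyond Zfp131, 2 of 8 genes (25%, against 23.4% of all genes) stood at limma's unadjusted p under 0.05. Of these, BC147527 fell by 0.74 (SE 0.13, limma adjusted p = 0.0257) between dim means of 4.64 and 3.90. Its probe set is of the same x_at type as the brightest one of Nnt, so its value is uncertain too.

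These calls changed when single arrays were left out, as did calls over all genes, of which 4.9% passed with every array included. Each such fit also rests on fewer arrays, and the part of that in the lost calls was not tested. Without knockout replicate 1, 0 of the 61 genes passed limma's threshold (22 at an unadjusted p under 0.05), against 0.093% of all genes. Without knockout replicate 2 or wild-type replicate 2, 1 (1.64%) passed, and it was Mier3 both times. Of all genes, 0.98% and 0.26% passed in these fits. Without wild-type replicate 1, 2 (3.28%) passed, against 0.97% of all genes. Without wild-type replicate 3, 4 (6.56%) passed, against 2.80%. Without knockout replicate 3, 6 (9.84%) passed, 5 of them from the original 6, against 4.23%. The 6 genes kept their direction each time.

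**Figure D2:**
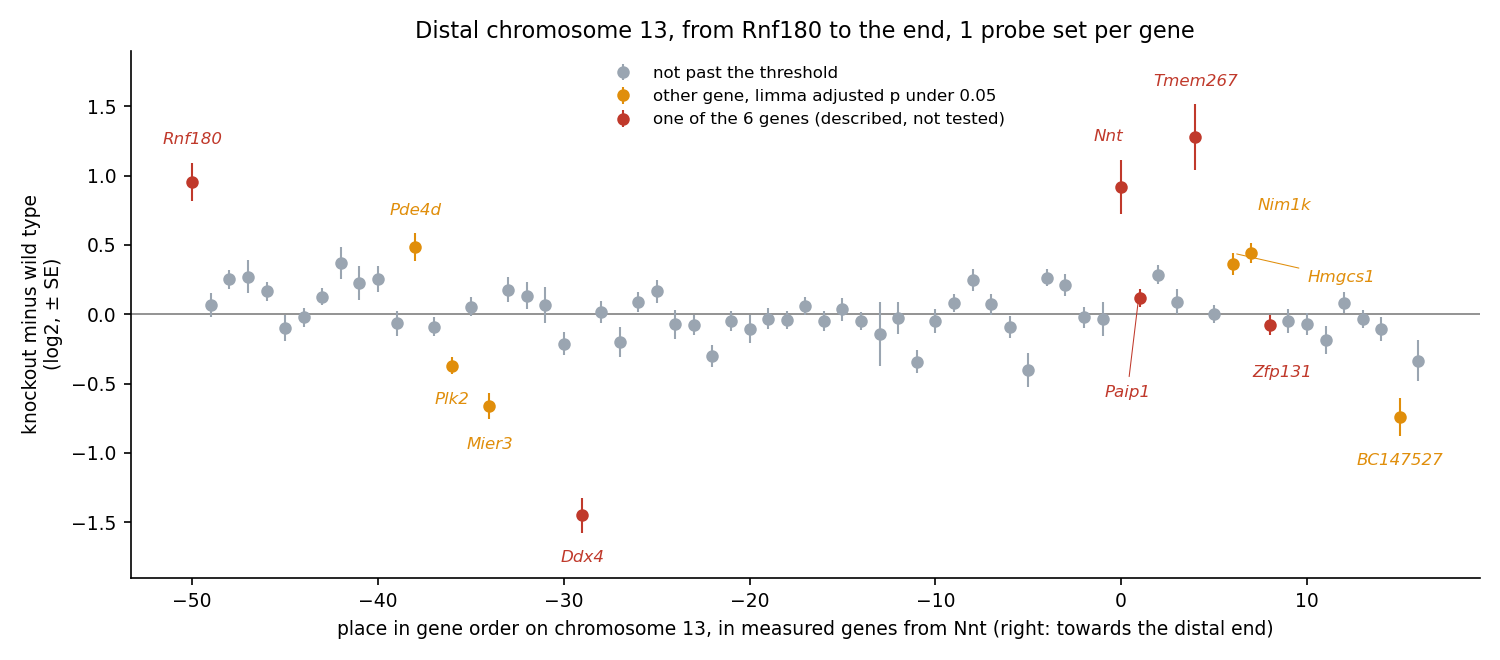
Difference of knockout minus wild type (log2, with limma's SE; 1 probe set per gene, the brightest) against the place of each measured gene in the order of chromosome 13, counted from Nnt, for 67 genes from Rnf180 to the distal end. Red points are the 6 described genes, orange points the 6 others with a limma adjusted p under 0.05, and grey points the rest; Rnf180, Nnt and Tmem267 lie near or above 1 and Ddx4 below -1, with 28 genes between Ddx4 and Nnt of which 0 passed.

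**Figure D3:**
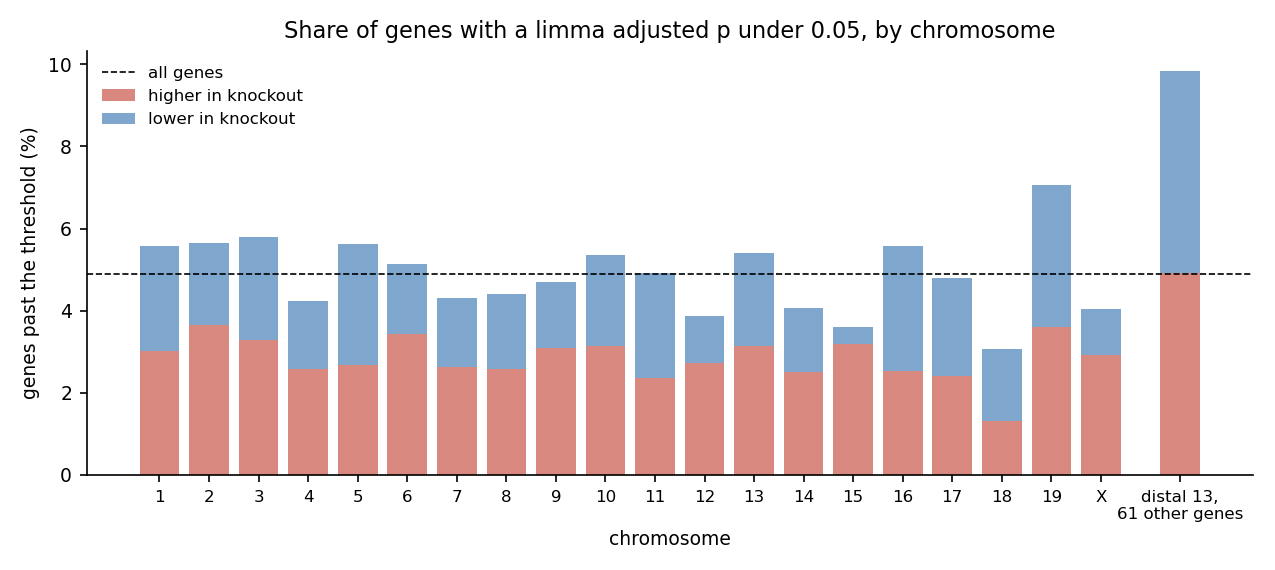
Share of genes (percent) with a limma adjusted p under 0.05 on each chromosome, split into higher (red) and lower (blue) in knockout; the last bar is distal chromosome 13 without the 6 genes, and the dashed line is the share over all genes, 4.9%. The last bar, 9.84%, rests on 61 genes, and the chromosome 13 bar includes the 6 genes, which were chosen on this contrast.

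Of the 5 measured genes nearest to Nnt on each side, members aside, only Hmgcs1 and Nim1k passed. On the proximal side Fgf10 and 1700003P14Rik were dim and differed by -0.03 (SE 0.12) and -0.02 (SE 0.08). Mrps30, a protein of the mitochondrial ribosome, differed by 0.21 (SE 0.08, limma adjusted p = 0.164), and Emb, which encodes the adhesion protein embigin, by 0.26 (SE 0.06, limma adjusted p = 0.0563). Emb was even within each genotype, at 12.55, 12.55 and 12.55 in knockout and 12.29, 12.22 and 12.34 in wild type. Parp8 differed by -0.40 (SE 0.12, limma adjusted p = 0.108).

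Between Paip1 and Tmem267 lies 4833420G17Rik. Its brightest probe set read 9.16, 9.33 and 9.24 in knockout and 8.98, 8.94 and 8.95 in wild type, without overlap, a difference of 0.29 (SE 0.07, limma adjusted p = 0.0571). A second of its 5 probe sets gave 0.30 (SE 0.07, limma adjusted p = 0.0571). In the rest the genotypes overlapped, with differences of 0.26 (SE 0.10), 0.03 (SE 0.15) and 0.09 (SE 0.08). The brightest probe set of the chemokine gene Ccl28 read 5.39 in both genotypes. Another Ccl28 probe set differed by -0.20 (SE 0.08, limma adjusted p = 0.18) without overlap, and the dimmest by 0.11 (SE 0.09) with overlap. The gene 3110070M22Rik differed by 0.09 (SE 0.09). Beside Ddx4, Il31ra differed by -0.21 (SE 0.08, limma adjusted p = 0.184) and Slc38a9 by 0.02 (SE 0.08). Beside Rnf180, Nt5el differed by -0.09 (SE 0.07) and Htr1a by 0.06 (SE 0.09).

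Genes known to vary among C57BL/6 substrains were read next, from a list of 12 of which 9 were measured with a probe set of their own. Of these, 1 fell, 0 rose and 8 did not pass, and their median difference was -0.05, against 0.01 for all genes. At limma's unadjusted p under 0.05, 1 was higher and 3 were lower (44.4%). That compares with 23.4% of all genes and 31.7% of genes above the median level, where 6 of the 9 lie. The genotypes did not overlap in 2 that were higher and 3 that were lower, against 20.7% and 11.2% of all genes. Fgfbp3, which encodes a secreted carrier of fibroblast growth factors, read 6.16, 6.30 and 6.39 in knockout and 6.87, 6.69 and 6.95 in wild type, a fall of 0.55 (SE 0.09, limma adjusted p = 0.0217). The call held only when replicate 3 of either genotype was the one left out; leaving out any other array gave a limma adjusted p between 0.0528 and 0.0830. Its neighbour Ide, the insulin-degrading enzyme, shares with it a duplicated segment that is known to vary within C57BL/6J colonies. Ide read 9.98, 10.01 and 9.90 in knockout and 10.27, 9.92 and 10.33 in wild type, a difference of -0.21 (SE 0.11, limma adjusted p = 0.311). Wild type 2 was the lowest wild-type array in all 5 Ide probe sets, at 5.44 against 6.50 and 6.28 for one of them, and it was the lowest wild-type array for Fgfbp3 too.

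Wdfy1, a phosphoinositide-binding adaptor whose expression is known to differ between C57BL/6J and C57BL/6N, split the wild-type arrays. Its brightest probe set read 7.49, 7.37 and 7.69 in knockout and 9.07, 9.20 and 7.75 in wild type. Wild type 3 thus lay next to the knockout values and more than 1 below the other wild-type arrays. Another probe set gave 7.40, 7.15 and 7.54 against 8.99, 9.22 and 7.81. A further one gave 7.09, 7.19 and 7.52 against 9.09, 9.27 and 7.21, so that here wild type 3 fell among the knockout arrays. With this spread the difference of -1.15 (SE 0.32) did not pass (limma adjusted p = 0.0832). The other 2 of its 5 probe sets did not show the split: one read 6.80, 6.71 and 6.99 against 7.11, 7.27 and 7.06, without overlap, and the dimmest differed by 0.01 (SE 0.07). Among the members, wild type 3 was also the wild-type array nearest to the knockout arrays for both brighter Nnt probe sets, for Ddx4 and for the brighter Rnf180 probe set, whereas for Tmem267 it was wild type 1. Wild type 3 was nearly tied for the second Nnt probe set (8.39, wild type 2 at 8.36) and Rnf180 (6.55, wild type 1 at 6.51). It stood further apart for the brightest Nnt probe set (9.07, wild type 2 at 8.82) and Ddx4 (5.55, wild type 1 at 5.82). Wild type 3 was also nearest in the average of the interferon-stimulated list given below (11.45, against 11.52 and 11.90). Whether these members share a pattern with Wdfy1 was not tested.

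None of the remaining substrain genes passed. Cyfip2, a regulator of actin assembly with a coding difference between substrains, read 7.97, 8.00 and 8.03 in knockout and 7.74, 7.56 and 7.75 in wild type, a difference of 0.32 (SE 0.07, limma adjusted p = 0.0514) without overlap. Crb1, in which C57BL/6N mice carry the retinal rd8 mutation, differed by 0.12 (SE 0.07) and Dock2 by 0.02 (SE 0.07). Nlrp12 (-0.05, SE 0.07), Mmrn1 (-0.25, SE 0.08) and Chl1 (0.16, SE 0.11) were below the median of all values in both genotypes, where a difference says little.

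**Figure D4:**
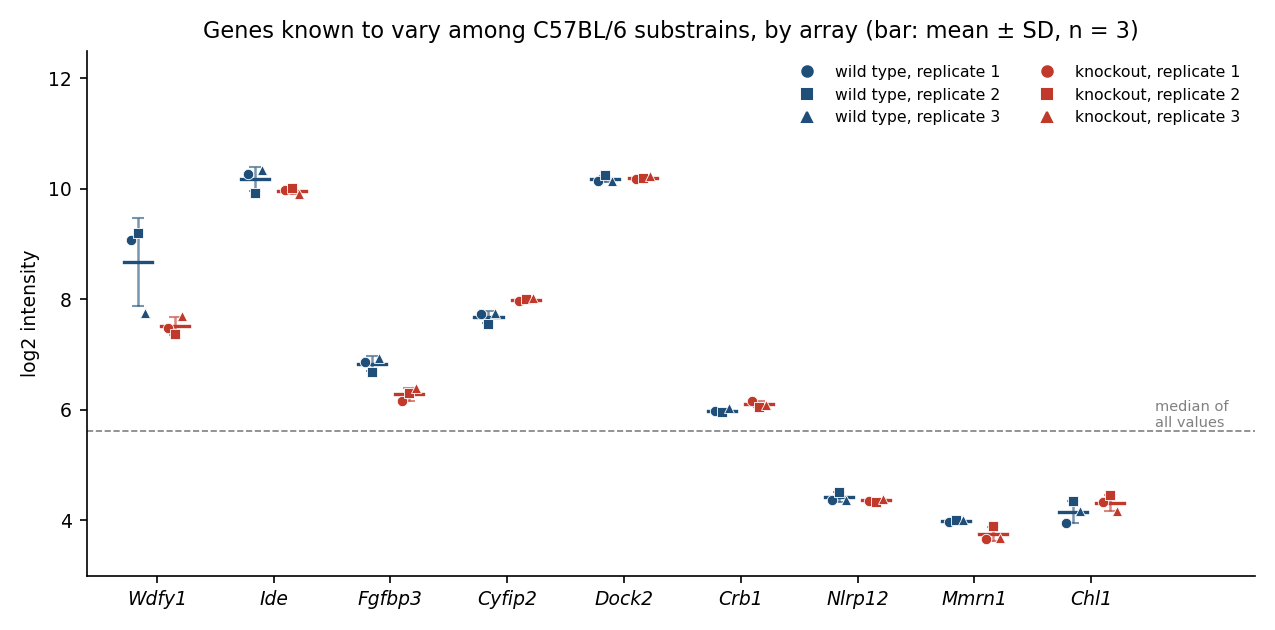
Log2 intensity (vertical axis) of 9 genes known to vary among C57BL/6 substrains (horizontal axis) on 3 wild-type (blue) and 3 knockout (red) arrays, 1 probe set per gene; marker shapes are replicates 1 to 3, horizontal bars are means and error bars SDs, and the dashed line is the median of all values, 5.63. Wild type 3 lies at 7.75 for Wdfy1, beside the knockout arrays and below wild type 1 and 2 at 9.07 and 9.20.

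Enzymes that work beside Nnt in the supply and use of NADPH came next. Among 13 measured genes of mitochondrial NADPH supply, 1 rose, 0 fell and 12 did not pass, with 11 of 13 means higher and a median difference of 0.15. Over all genes 53.1% of means were higher with a median of 0.01, and over genes above the median level, where 11 of these 13 lie, 62.4% were higher with a median of 0.05. At limma's unadjusted p under 0.05, 4 of the 13 (30.8%) were higher and 0 lower, against 31.7% of genes above the median level. The riser was Shmt2, the mitochondrial serine hydroxymethyltransferase that feeds one-carbon units into NADPH-making steps. It read 7.17, 7.36 and 7.22 in knockout and 6.48, 6.34 and 6.51 in wild type, a rise of 0.81 (SE 0.08, limma adjusted p = 0.00705), on a probe set of the x_at type. It passed in all 6 fits that left out an array (limma adjusted p from 0.00969 to 0.0369) but not with values floored at their 20th percentile (limma adjusted p = 0.0645). Idh2, the mitochondrial isocitrate dehydrogenase that makes NADPH, differed by 0.22 (SE 0.07), Slc25a11 by 0.19 (SE 0.06) and Glud1 by 0.18 (SE 0.06), none past the threshold.

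A further list of NADPH and NAD supply, not confined to cytosolic enzymes, had 13 measured genes. Of these, Idh1, the cytosolic isocitrate dehydrogenase, rose by 0.46 (SE 0.08, limma adjusted p = 0.0238), 0 fell and 12 did not pass (median 0.09). At limma's unadjusted p under 0.05, 2 were higher and 1 was lower (23.1%), against 31.7% of genes above the median level, where all 13 lie. Idh1 lost the call without each array except knockout replicate 3 (limma adjusted p of 0.0527 to 0.0873). Nampt, which makes an NAD precursor, differed by -0.21 (SE 0.07), Tkt by 0.19 (SE 0.06) and Nmnat3 by 0.15 (SE 0.08). A list of peroxide and redox defence was not confined to genes that remove peroxide in mitochondria, since it also holds Sod2, Cat and Glrx5. Of its 13 measured genes, 0 passed limma's threshold, with 6 higher and 1 lower (53.8%) at an unadjusted p under 0.05 and a median of 0.15. At that unadjusted p stood 23.4% of all genes and 31.7% of genes above the median level, where this whole list lies. The 7 include the peroxiredoxin Prdx3 (0.25, SE 0.07), the thioredoxin reductase Txnrd2 (0.24, SE 0.09), the glutathione reductase Gsr (0.20, SE 0.07) and Slc25a39, the mitochondrial glutathione importer (0.21, SE 0.08). The 1 lower was Sod2 (-0.20, SE 0.08).

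Lists of genes drawn up around the other members were read in the same way. Of 16 measured genes of poly(A)-binding proteins and translation initiation, where Paip1 acts, 0 passed limma's threshold, with 5 higher and 1 lower of 16 (37.5%) at an unadjusted p under 0.05, against 31.7% of genes above the median level, where all 16 lie, and with a median of 0.12. Pabpc4 differed by 0.24 (SE 0.07), Paip2, an inhibitor of the poly(A)-binding protein, by 0.23 (SE 0.08), Eif4a2 by 0.17 (SE 0.06) and Larp1 by -0.19 (SE 0.07). Of 14 measured genes of a germ cell list drawn up around Ddx4, not all of them known partners of it, 1 rose, 1 fell and 12 did not pass (median -0.03). Of the 14, 9 lay below the median of all values, and 14.3% stood at limma's unadjusted p under 0.05, against 23.4% of all genes. Tdrd7, a tudor domain protein, fell by 0.72 (SE 0.11, limma adjusted p = 0.0207), from a bright 10.71 in wild type to 9.99 in knockout. Within each genotype its arrays ranked as did the averages of the interferon-stimulated list given below, and a link was not tested. Piwil2, a piRNA-binding protein, rose by 0.47 (SE 0.10, limma adjusted p = 0.0347), so Tdrd7 and Piwil2 moved in opposite directions. Dppa3 (-0.25, SE 0.13) and Piwil4 (-0.19, SE 0.11) did not pass. Tdrd7 passed only when replicate 3 of either genotype was left out, with a limma adjusted p of at most 0.0823 otherwise, and Piwil2 kept it only without knockout replicate 3, with limma adjusted p of 0.0567 to 0.121 otherwise. Piwil2 also did not pass after quantile normalization (limma adjusted p = 0.0515). Among 18 BTB zinc finger relatives of Zfp131, Zbtb14 rose by 0.31 (SE 0.07, limma adjusted p = 0.0450), 0 fell and 17 did not pass (median 0.06). At limma's unadjusted p under 0.05, 4 were higher and 1 was lower (27.8%), against 31.7% of genes above the median level, where 17 of the 18 lie. Zbtb14 passed in 0 of the 6 fits that left out an array (limma adjusted p from 0.0724 to 0.129; all arrays included, its unadjusted p was 0.00151), nor after quantile normalization (limma adjusted p = 0.0634). Zbtb1 (0.29, SE 0.07), Zbtb18 (0.22, SE 0.06) and Patz1 (0.43, SE 0.13) did not pass.

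A shift in interferon-stimulated genes is given for scale. All 18 measured genes of a short list had a lower mean in knockout and 17 fell, with list averages of 10.01, 9.12 and 10.56 on knockout arrays 1 to 3 and 11.52, 11.90 and 11.45 on wild-type arrays 1 to 3. Knockout 2, the lowest array for this list, was also the lowest knockout array for both brighter Nnt probe sets and the highest for Rnf180. The part of this list in the members' values was not tested. Without knockout replicate 1 the number of probe sets past the threshold over the whole array fell from 1691 to 40, and without wild-type replicate 2 to 104.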

How the data were processed

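The authors deposited log2 intensities of 45101 probe sets for 6 arrays; their range shows the log2 scale. RMA, GCRMA 2.30.0, limma 3.14.4 and affy 1.36.1 are listed, with no roles, in the submitters' processing notes, so the method behind the values stays unknown; RMA and GCRMA differ in how far they lower dim signals, which bears on Ddx4. The 64 control probe sets were left out. Names and gene order came from the platform annotation and RefSeq (GRCm38.p6), joined by gene identifier; where a gene has several probe sets, the one with the highest mean stood for it. Knockout minus wild type was fitted over all 45037 probe sets in R 4.3.3 by limma 3.58.1 (eBayes after lmFit, with genotype as the sole term, Benjamini-Hochberg adjustment, threshold 0.05) after a check on simulated arrays. SEs are limma's. A permutation of 6 arrays cannot give a two-sided p under 0.1. The members and lists were chosen with earlier results of these data known. Named genes were the members, the 5 nearest measured genes on each side of Nnt, the nearest beside Ddx4 and Rnf180, region genes past the threshold, all substrain genes, up to 4 genes with the smallest p per other list, and the 5 most and 5 least like Nnt. Figures used matplotlib 3.10.9 in Python 3.11.15.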

Additional observations from a re-analysis of the deposited data

How the results depend on the processing

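The 3 arrays of each genotype limit every value. The number of probe sets past limma's threshold, 1691, was 2692 with above-median probe sets only, 71 with values floored at the 20th percentile, 3126 with trend and robust settings, 3775 at an adjusted p under 0.1, and 40 to 1360 with 1 array left out. The 6 region genes became 1, 10 and 11 under the floor, trend and robust, and adjusted p under 0.1 settings, 0 to 6 with 1 array left out, 3 from Ddx4 to the distal end, and 2 among the 20 measured genes nearest to Nnt, since both sets hold fewer genes. The 28 genes on the rest of chromosome 13 became 52 with above-median probe sets, 0 under the floor (limma; 153 at an unadjusted p under 0.05), 55 with trend and robust settings, 48 when a gene's probe sets were averaged, 66 at an adjusted p under 0.1 and 3 to 27 with 1 array left out. The 6 called genes of the 7 lists became 10, 0 (limma; 32 at an unadjusted p under 0.05), 16, 10 and 13 in the same settings and 1 to 5 with 1 array left out. Apart from the smaller sets, the cause was not tested.

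Averaging each gene's probe sets, dim ones included, lowered the difference of Nnt to 0.57 and of Rnf180 to 0.49. The 7 member probe sets without overlap stayed 7 or 8 with 1 array left out. The replicate numbers did not pair the arrays: deviations of same-numbered arrays from their group means correlated at -0.06, -0.04 and -0.13. With the number as a block, 92 probe sets, 0 region genes (limma; 18 at an unadjusted p under 0.05), 2 genes on the rest of chromosome 13 and 1 list gene (Shmt2) passed, with the members' differences the same by construction. Quantile normalization and median centring changed no direction of the 5 member probe sets with differences above 0.7. Quantile normalization left 4 of the 6 list genes past the threshold, without Piwil2 and Zbtb14.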
